A study of Mus musculus with 12 samples.

Results

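The genes described here form the creatine kinase and energy-buffering set of skeletal muscle: the creatine kinases Ckm, Ckb and Ckmt2, the creatine supply genes Slc6a8 and Gatm, the adenylate enzymes Ak1 and Ampd1, and myoglobin, Mb. They were chosen by name, 8 genes of the 55487 listed in the counts table, by matching Ensembl identifiers to GENCODE symbols on the mouse build GRCm38. The cells were C2C12 myotubes. C2C12 is a mouse myoblast line whose cells leave the cell cycle and fuse into long fibres with many nuclei, the myotubes, in medium poor in serum. All cultures had 5 days of differentiation in 2% horse serum. The medium was then changed for 24 h to 4% horse serum (control) or to 4% STEM, with 6 libraries per group. STEM is a cell-free secretome, the mixture of factors released by partially differentiated human embryonic stem cells. It took the place of the serum, and the effect of STEM and that of losing the serum cannot be told apart. The study asked what STEM does to myotubes directly, apart from the other cells of a muscle. The libraries are named horse serum libraries 1 to 6 and STEM libraries 7 to 12. The labels do not say that they came from separate cultures, so the p-values measure the spread between these libraries, which may be technical. One cell line, at a single time point, stands for muscle here, and neither innervation nor load was present.

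Creatine kinases move a phosphate group between ATP and creatine. The mitochondrial enzyme (Ckmt2) charges creatine where ATP is made, and the cytosolic enzymes (the muscle form Ckm and the brain form Ckb) use the phosphocreatine to refill ATP where it is spent, next to the contractile filaments and the calcium pumps. Developing muscle is known to start with Ckb and to shift to Ckm as it matures. Slc6a8 is the transporter that brings creatine into the cell, and Gatm carries out the first step of creatine synthesis. When ADP builds up, adenylate kinase (Ak1) makes ATP and AMP from it, and AMP deaminase (Ampd1) removes the AMP. Myoglobin stores oxygen and is most abundant in oxidative fibres.

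Depth lay between 13285472 and 24536264 counts per library. Horse serum library 6 stood apart from the other 11. On the second principal component, which held 19.8% of the variance, it lay at -53.3 and the other libraries between 0.216 and 11.8. On the first, which held 44.2%, library 6 lay at 11.2, nearer to the STEM libraries (15.5 to 28.6) than to horse serum libraries 1 to 5 (-35.5 to -24.6). Of 27 contractile markers of myotubes, all 27 were lower in library 6 than in each of the other 5 horse serum libraries. Their mean log2 CPM (log2 of the counts scaled to a common library size, CPM) was 7.93 there, 9.45 to 9.55 in the other horse serum libraries and 8.98 to 9.35 with STEM. The test of each of the 8 genes is therefore given with and without library 6, and levels without it are those of horse serum libraries 1 to 5. In bulk RNA, fewer myotubes and less of these transcripts per myotube cannot be told apart. Markers of several other cell types were nearly absent. The summed level of the 4 endothelial markers was at least 0.353 CPM and at most about 1 CPM in any library, that of the 5 red cell markers at most 0.193 CPM, and all 5 red cell markers were at or below 3 counts in every library. A list of 8 myoblast and cycling markers summed to 1169 CPM in library 6, 751 to 1082 CPM in the other horse serum libraries and 541 to 642 CPM with STEM, and 6 of the 8 were lower with STEM. The 6 fibroblast markers summed to 536 CPM in library 6, 340 to 476 CPM in the others and 379 to 836 CPM with STEM, with 1 of the 4 tested called higher and 1 lower. The 6 macrophage markers summed to at most 6.00 CPM and the 4 adipocyte markers to at most 0.274 CPM in any library. Of the 4 neuronal markers, Rbfox3, Snap25 and Syt1 were at or below 3 counts in every library, and the fourth, the tubulin Tubb3, brought the list to 5.79 CPM in library 6, 1.03 to 2.19 CPM in the other horse serum libraries and 17.6 to 22.7 CPM with STEM. The part of other cells in the results was not tested.

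With STEM, the transcripts of Ckb, Slc6a8 and Ak1 were more abundant than with horse serum, by 1.42, 1.39 and 1.23 fold. Transcripts of Ckmt2, Mb and Ampd1 were less abundant than in horse serum libraries 1 to 5. These differences passed the edgeR test only when library 6 was left out. With all 12 libraries, DESeq2 also called Ckmt2 (adjusted p = 0.0396), and limma-voom with sample quality weights, which gave library 6 a weight of 0.111, called Ckmt2, Ampd1 and Mb (adjusted p = 0.000217, 0.00608 and 2.11e-05). These fits called 5321 and 7320 of all genes, against 5155 in edgeR with all 12 libraries. Limma-voom without the weights called none of Ckmt2, Ampd1 and Mb (adjusted p = 0.353, 0.557 and 0.254). Ckm and Gatm did not pass in either edgeR fit. In numbers, 3 of the 8 genes were called higher and 0 lower in the edgeR quasi-likelihood test with all 12 libraries (adjusted p of 0.05 or less over 14175 tested genes). In the same fit, 18.9% of all tested genes were called higher and 17.4% lower, 36.4% in all. Without library 6 the counts were 3 higher and 3 lower, beside 26.3% higher and 24.5% lower among all tested genes, 50.8% in all. Of the 8 genes, 3 were higher in every STEM library than in every horse serum library and 0 were lower in every one. The share of all tested genes without overlap in that sense was 8.68% in the higher direction and 8.52% in the lower, 17.2% in all. Without library 6, 3 genes were fully above and 3 fully below, and the shares of all tested genes were 16.8% and 16.5%, 33.4% in all. Over all tested genes the median log2 fold change was 0.01 in both fits.

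**Figure D1:**
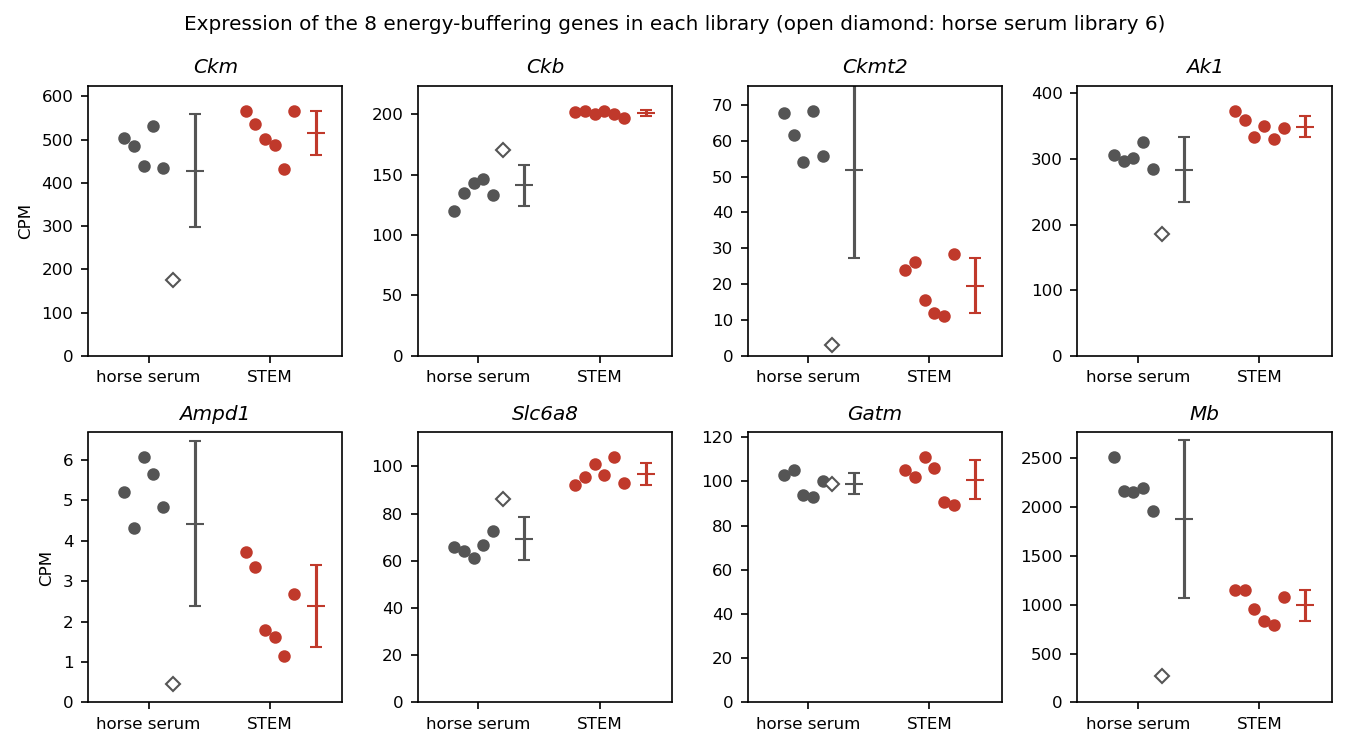
Expression in CPM (vertical axes, each starting at 0) of the 8 genes in every library, with horse serum in grey, STEM in red, horse serum library 6 as an open diamond, and the mean ± SD of all 6 libraries beside each group. Ckb, Slc6a8 and Ak1 lie higher in every STEM library, while Ckmt2, Ampd1 and Mb lie lower in every STEM library than in horse serum libraries 1 to 5, with library 6 lowest of all.

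Ckm, the cytosolic creatine kinase of mature muscle (ENSMUSG00000030399, chr7:19404776-19422841, plus strand), was present at a lowest, median and highest value of 175, 462 and 532 CPM in the horse serum libraries and 433, 519 and 567 CPM in the STEM libraries. The value of 175 CPM was that of library 6, and the other 5 horse serum libraries (434 to 532 CPM) overlapped the STEM range almost entirely. The mean was 428 ± 130 CPM with horse serum (SD, n = 6), 479 ± 42.3 without library 6 (n = 5) and 515 ± 52.0 with STEM (n = 6). The log2 fold change was 0.27 with an SE of 0.21 (adjusted p = 0.354, edgeR), and its 95% interval ran from -0.19 to 0.73. Without library 6 it was 0.11 with an SE of 0.07 (adjusted p = 0.242), with an interval from -0.05 to 0.26. Ckm thus passed the test in neither fit, and rises of up to 0.73 with all libraries, or 0.26 without library 6, lay within the intervals.

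Ckb, the cytosolic form of brain and of immature muscle (ENSMUSG00000001270, chr12:111669361-111672338, minus strand), had 120, 139 and 170 CPM as its lowest, median and highest value with horse serum and 197, 201 and 203 CPM with STEM. The groups did not overlap, and the highest horse serum value was that of library 6, the library in which Ckm was lowest. The means were 141 ± 16.7 CPM (n = 6) and 201 ± 2.36 CPM (n = 6). The STEM libraries differed by a factor of 1.03 between the highest and the lowest, the smallest spread of any of the 8 genes in that group. The log2 fold change was 0.51 with an SE of 0.06 (adjusted p = 3.24e-05, edgeR), and 0.57 without library 6 (adjusted p = 5.17e-09).

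Ckmt2, the creatine kinase of muscle mitochondria (ENSMUSG00000021622, chr13:91853387-91876885, minus strand), had 3.02, 58.7 and 68.4 CPM as its lowest, median and highest value with horse serum and 11.1, 19.8 and 28.5 CPM with STEM. Horse serum libraries 1 to 5 lay between 54.1 and 68.4 CPM, all above every STEM library, whereas library 6 lay below every STEM library. Its 3.02 CPM were 4.91% of the mean of the other 5. The mean was 51.8 ± 24.6 CPM (n = 6) with horse serum, 61.6 ± 6.64 CPM without library 6 (n = 5) and 19.6 ± 7.58 CPM with STEM (n = 6). With all libraries the log2 fold change was -1.39 with an SE of 0.54 and did not pass (adjusted p = 0.0672, edgeR). Without library 6 it was -1.64 with an SE of 0.25 (adjusted p = 0.000359), the largest difference among the 8 genes.

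**Figure D2:**
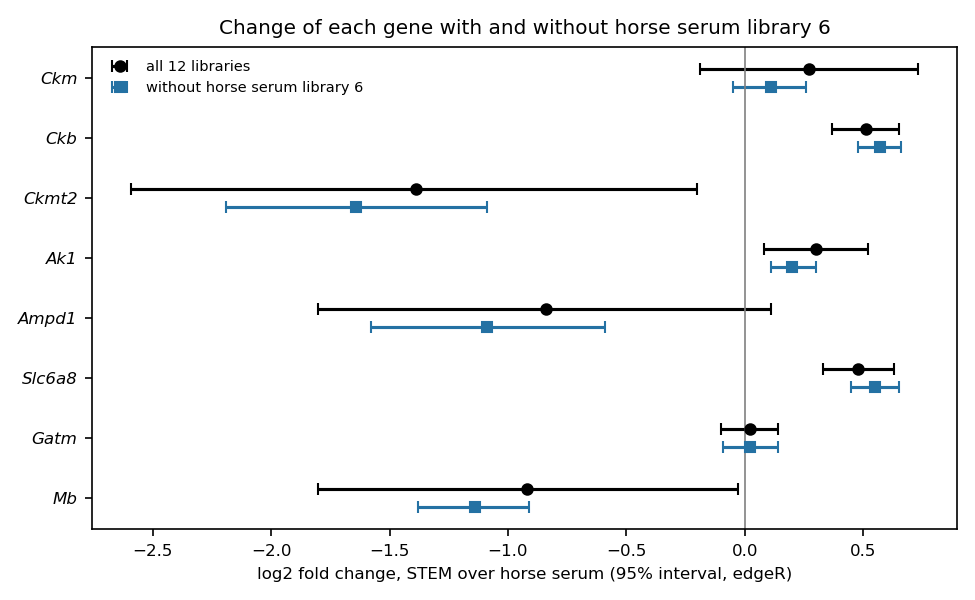
Log2 fold change of STEM over horse serum (horizontal axis) for each of the 8 genes with its 95% interval from edgeR, with all 12 libraries (black circles) and without horse serum library 6 (blue squares). The intervals are not adjusted for the number of genes. Without the library those of Ckmt2, Ampd1 and Mb are narrower and lie wholly below 0 (with all libraries that of Ampd1 reached 0.11), while Ckb, Slc6a8 and Ak1 lie above 0 in both fits and Ckm and Gatm span 0 in both.

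Levels of different genes can be set beside each other only per length, here as CPM per kb of annotated exon. On that scale the summed level of the creatine kinases was 253 ± 18.9 CPM per kb in horse serum libraries 1 to 5 (n = 5) and 259 ± 22.5 CPM per kb with STEM (n = 6), 2 overlapping ranges. Its makeup differed. Ckm held 65.0 ± 1.15% of the sum in the 5 horse serum libraries and 68.1 ± 1.19% with STEM, and these ranges touched (63.7 to 66.5% and 66.0 to 69.3%). Ckb held 18.6 ± 1.90% and 26.9 ± 2.45%, without overlap. Ckmt2 held 16.4 ± 0.777% and 4.98 ± 1.58%, also without overlap. The share of the brain form was thus larger, and that of the mitochondrial form smaller, in every STEM library than in these 5. The ratio of Ckm to Ckb per length was 3.53 ± 0.434 in the 5 horse serum libraries and 2.55 ± 0.262 with STEM. Library 6 had a makeup of its own, with 49.7% Ckm, 48.6% Ckb and 1.69% Ckmt2 of a sum of 121 CPM per kb. The fourth gene, Ckmt1, the mitochondrial form of brain and other tissues, was at no more than 0.021% of the sum in any library. Shares are descriptions without a test, and they assume that the whole annotated exon length was transcribed.

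**Figure D3:**
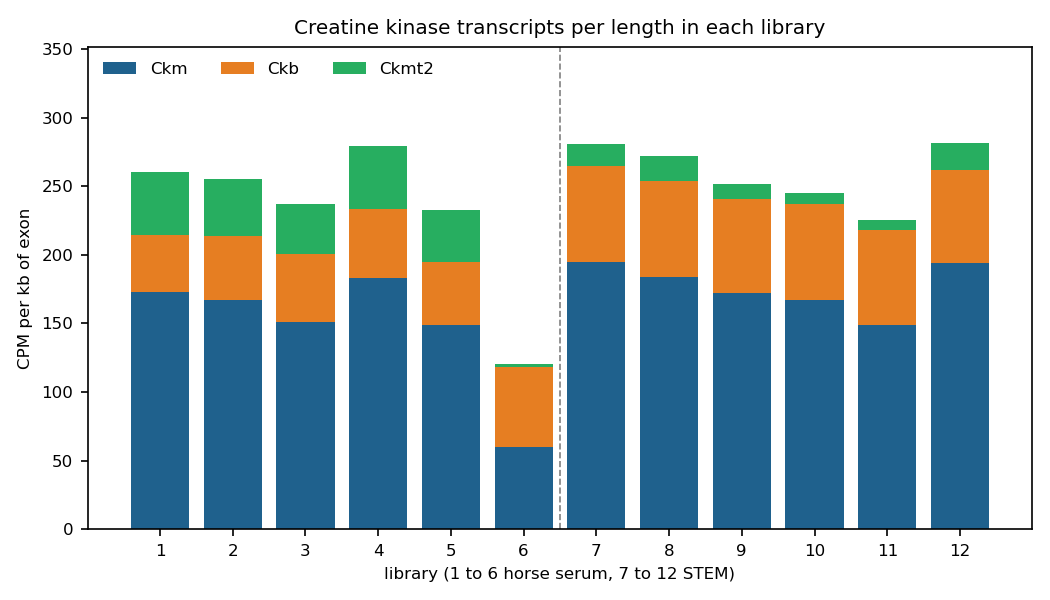
Level per length (CPM per kb of exon, vertical axis from 0) of Ckm, Ckb and Ckmt2 stacked in each of the 12 libraries, with the dashed line between horse serum (1 to 6) and STEM (7 to 12). The sums reach similar heights except in library 6, and the green Ckmt2 part is smaller in every STEM library than in horse serum libraries 1 to 5.

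Reads of the creatine kinases could be told from each other, since the longest stretch of identical bases between their longest coding transcripts was 20 bases for Ckm and Ckb, 17 for Ckm and Ckmt2 and 15 for Ckb and Ckmt2. Genes on the opposite strand overlap some exons, A930016O22Rik over 15.5% of the exon bases of Ckm, 1700119I11Rik over 5.65% of those of Ckmt2, and Gm49540 and Apol6 over 27.6% and 4.29% of those of Mb. A930016O22Rik had 0 to 2 counts per library, 1700119I11Rik 0 to 1 and Gm49540 1 to 10. Because the strand setting of the counting is not given in the sources used here, reads in these stretches cannot be assigned with certainty.

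The promoters of the 3 creatine kinases are shown because these genes had different patterns over the libraries, and that of Mb because its pattern was like that of Ckmt2. The sequences are from RefSeq on build GRCm38.p6, in the sense of the gene and 5′ to 3′. Each begins 250 bases before the RefSeq start and stops at that start or at the first GENCODE exon base, whichever comes first. For Ckm this left 181 bases, which end short of its start at 19411094. Those of Ckb, Ckmt2 and Mb hold 250 bases and run up to the start. Capitals mark CANNTG, the E-box letters that myogenic factors such as MyoD and myogenin are known to bind. For Ckm the printed stretch is chr7:19410844-19411024 on the plus strand, for Ckb chr12:111672339-111672588 on the minus strand, for Ckmt2 chr13:91876886-91877135 on the minus strand and for Mb chr15:77022788-77023037 on the minus strand, before the start at 77022787, 1 of 3 that the table holds for Mb.
Ckm: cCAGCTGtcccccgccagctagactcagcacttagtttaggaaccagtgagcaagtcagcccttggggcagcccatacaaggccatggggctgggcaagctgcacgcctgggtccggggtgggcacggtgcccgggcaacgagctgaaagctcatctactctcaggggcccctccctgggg
Ckb: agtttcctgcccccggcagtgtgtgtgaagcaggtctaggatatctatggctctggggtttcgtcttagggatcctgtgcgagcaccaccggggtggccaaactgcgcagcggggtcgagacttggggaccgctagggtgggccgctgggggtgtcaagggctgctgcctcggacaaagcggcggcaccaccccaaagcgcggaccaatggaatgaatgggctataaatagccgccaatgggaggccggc
Ckmt2: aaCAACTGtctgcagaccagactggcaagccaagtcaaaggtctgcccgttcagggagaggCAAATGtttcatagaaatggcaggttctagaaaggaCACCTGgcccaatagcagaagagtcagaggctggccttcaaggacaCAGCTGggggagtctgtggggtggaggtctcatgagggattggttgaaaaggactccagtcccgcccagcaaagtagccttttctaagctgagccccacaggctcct
Mb: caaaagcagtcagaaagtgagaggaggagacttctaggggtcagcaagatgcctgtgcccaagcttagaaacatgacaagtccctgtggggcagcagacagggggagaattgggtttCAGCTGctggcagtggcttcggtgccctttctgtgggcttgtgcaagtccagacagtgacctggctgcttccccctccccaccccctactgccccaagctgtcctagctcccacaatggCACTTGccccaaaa

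Both strands of the 300-base windows, 250 bases before to 50 after each start, were searched for CANNTG, for its special cases CAGCTG and CACCTG, which are also counted within it, and for the TATA box letters TATAAA, the GC box letters GGGCGG, the letters AAGGTCA of estrogen-related receptors and the SRF motif. The Ckmt2 window held 4 CANNTG matches, 248, 189, 153 and 107 bases before the start, of which the match at 153 read CACCTG and the match at 107 read CAGCTG. The Mb window held 3, the first of them a CAGCTG 133 bases before the start. The Ckm window held 1, a CAGCTG 249 bases before the start, and the Ckb window held 0 but had a TATAAA 28 bases before the start. A GGGCGG stood 46 bases before the start of Ckmt2 and in none of the other 3 windows. Ckb was the creatine kinase that was higher with STEM in both fits, and Ckmt2 the one that differed most in the other direction without library 6. Any part of these letters in the levels was not tested. Among all 32851 promoter windows of the table, 72.3% held CANNTG, 16.3% CAGCTG, 20.2% CACCTG, 13.6% TATAAA and 35.7% GGGCGG, so these matches are common letters and a description only. None of the windows of these 4 genes held AAGGTCA or the SRF motif, which stood in 4.72% and 1.63% of all windows. The table matched 6 of the 8 genes, and Ampd1 and Slc6a8 were not among them.

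Slc6a8, the creatine transporter (ENSMUSG00000019558, chrX:73673150-73682502, plus strand), had 61.2, 66.3 and 86.4 CPM as its lowest, median and highest value with horse serum and 92.1, 95.9 and 104 CPM with STEM. The groups did not overlap, and library 6 held the highest horse serum value, as for Ckb. The means were 69.5 ± 9.12 CPM (n = 6) and 96.9 ± 4.63 CPM (n = 6). The log2 fold change was 0.48 with an SE of 0.07 (adjusted p = 0.000138, edgeR), and 0.55 without library 6 (adjusted p = 1.99e-08).

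Gatm, which makes the creatine precursor guanidinoacetate (ENSMUSG00000027199, chr2:122594467-122611303, minus strand), had 93.0, 99.6 and 105 CPM with horse serum and 89.1, 103 and 111 CPM with STEM as its lowest, median and highest value. The ranges overlapped, and library 6, at 99.0 CPM, lay in the middle of its group. Gatm was the only gene of the 8 for which library 6 was neither below nor above all other horse serum libraries. The means were 99.0 ± 4.80 and 100 ± 8.68 CPM, and the log2 fold change was 0.02 with an SE of 0.06 (adjusted p = 0.789, edgeR). Its 95% interval, from -0.10 to 0.14, bounds the difference that these libraries leave room for. The second enzyme of creatine synthesis, Gamt, rose with STEM, with a log2 fold change of 0.53 (adjusted p = 0.000232, edgeR).

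Ak1, the cytosolic adenylate kinase of muscle (ENSMUSG00000026817, chr2:32621758-32635058, plus strand), had 186, 299 and 326 CPM as its lowest, median and highest value with horse serum and 330, 349 and 374 CPM with STEM. The groups did not overlap, but the gap between them was narrow, 326 against 330 CPM. The means were 284 ± 49.6 CPM with all 6 horse serum libraries, 303 ± 15.1 CPM without library 6 and 349 ± 16.2 CPM with STEM. The log2 fold change was 0.30 with an SE of 0.10 (adjusted p = 0.0349, edgeR), and 0.20 with an SE of 0.04 without library 6 (adjusted p = 0.000652). The smaller value is the one that does not include the low library. The call was lost when any 1 of 5 other libraries (horse serum library 5, STEM libraries 7, 8, 10 and 12) was left out, at adjusted p between 0.0558 and 0.0763.

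Ampd1, the AMP deaminase of muscle (ENSMUSG00000070385, chr3:103074014-103099720, plus strand), was the least abundant of the 8 genes. Its lowest, median and highest value were 0.461, 5.02 and 6.07 CPM with horse serum and 1.16, 2.23 and 3.71 CPM with STEM, from 9 to 91 counts per library. All STEM libraries lay below horse serum libraries 1 to 5 (4.32 CPM or more) and above library 6. The means were 4.42 ± 2.04 CPM with horse serum, 5.22 ± 0.683 CPM without library 6 and 2.39 ± 1.03 CPM with STEM. The log2 fold change was -0.84 with an SE of 0.44 (adjusted p = 0.156, edgeR), and -1.09 with an SE of 0.23 without library 6 (adjusted p = 0.00118).

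Mb, the oxygen store (ENSMUSG00000018893, chr15:77015487-77050670, minus strand), was by far the most abundant of the 8. It had 270, 2160 and 2512 CPM as its lowest, median and highest value with horse serum and 790, 1022 and 1155 CPM with STEM. Horse serum libraries 1 to 5, at 1964 CPM or more, lay above every STEM library, and library 6 lay below every one, at 12.3% of the mean of the other 5. The means were 1878 ± 807 CPM with horse serum, 2199 ± 198 CPM without library 6 and 995 ± 158 CPM with STEM. The log2 fold change was -0.92 with an SE of 0.40 (adjusted p = 0.0988, edgeR), and -1.14 with an SE of 0.11 without library 6 (adjusted p = 4e-06).

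Per length, Mb in horse serum libraries 1 to 5 was at 1474 CPM per kb, followed by Ckm (164), Ak1 (117), Ckb (46.8), Ckmt2 (41.4), Gatm (33.0), Slc6a8 (12.7) and Ampd1 (1.47). Ckb (41.4 to 50.5 CPM per kb) and Ckmt2 (36.4 to 46.0) overlapped in that order, and the other neighbours did not. With STEM the order of levels was Mb (667 CPM per kb), Ckm (177), Ak1 (135), Ckb (69.4), Gatm (33.5), Slc6a8 (18.6), Ckmt2 (13.2) and Ampd1 (0.672). Ckmt2 thus stood behind Gatm and Slc6a8, although its range with STEM (7.46 to 19.2 CPM per kb) overlapped that of Slc6a8 (17.7 CPM per kb or more).

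The STEM libraries were not alike. Libraries 7, 8 and 12 held the 3 highest values of Ckm, Ckmt2, Ampd1 and Mb, and the 3 lowest came in the order 9, 10, 11 for all 4. The ratio of the highest to the lowest STEM library was 3.19 for Ampd1, 2.57 for Ckmt2, 1.46 for Mb and 1.31 for Ckm. Slc6a8 was split into the same trios the other way round, with its 3 highest values in libraries 9, 10 and 11. The contractile markers split the same way, with a mean log2 CPM of at least 9.22 in libraries 7, 8 and 12 and at most 9.02 in libraries 9, 10 and 11. The part of that split in the levels was not tested.

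Because muscle genes may follow the contractile marker level of a library, each gene was also measured relative to the mean log2 CPM of the 27 contractile markers in the same library. Not all 8 followed it. In library 6, where the markers were lowest, Ckb, Slc6a8 and Gatm were at 125%, 131% and 100% of the mean of the other horse serum libraries. The marker mean itself differed by -0.10 between STEM and horse serum with all libraries (exact permutation test over libraries, two-sided, p = 0.857) and by -0.36 without library 6 (p = 0.00433, exact permutation test). Of the 27 markers, 3 were called higher and 3 lower with all libraries, and 3 higher and 18 lower without library 6 (edgeR). Relative to the markers, Ckm was higher with STEM by 0.44 on the log2 scale, with values from -0.23 to -0.05 with STEM and from -0.69 to -0.48 with horse serum. Library 6, at -0.48, was here within the range of its group. Ckm was the only gene of the 8 whose groups did not overlap on this scale with all 12 libraries. The share of all tested genes without overlap was not counted on this scale, so no background stands beside it. The unadjusted p of Ckm was 0.00216, the smallest that the exact permutation test can give with 6 against 6. Adjusted over all 14175 genes it was 0.0729. With all 12 libraries 0 of the 8 genes and 0% of all tested genes passed that adjustment, while 2 of the 8 and 1470 of all tested genes had an unadjusted exact p under 0.05. By limma on the same values, a test added after the data had been seen, 0 of the 8 genes passed as well, beside 0.917% of all tested genes called higher and 0.663% called lower.

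Without library 6, 5 of the 8 genes were higher relative to the markers and 3 lower (exact permutation test, adjusted over all tested genes). In that comparison 58.3% of all tested genes were called higher and 4.87% lower, 63.2% in all, since the marker mean was itself lower with STEM. Ckb and Slc6a8 differed by 0.93 and 0.91 on the log2 scale, Ak1 by 0.56, Ckm by 0.46 and Gatm by 0.38. Rises of this kind therefore describe genes that did not go down with the contractile markers. The 3 lower genes fell by more than the marker mean, but Mb and Ampd1 did not fall by more than every marker. Without library 6 the log2 fold change was -1.48 for Myh8, -1.37 for Mybpc1 and -1.26 for Myh7 (edgeR). It was -1.64 for Ckmt2, -1.14 for Mb and -1.09 for Ampd1, and 3 of the 27 markers were called higher. Ckmt2 was lower by a difference of -1.38, Ampd1 by -0.83 and Mb by -0.80, at adjusted p-values of 0.0087, 0.0172 and 0.0087 (exact permutation test). By limma, too, 5 of the 8 genes were higher and 3 lower, beside 63.1% and 5.42% of all tested genes.

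**Figure D4:**
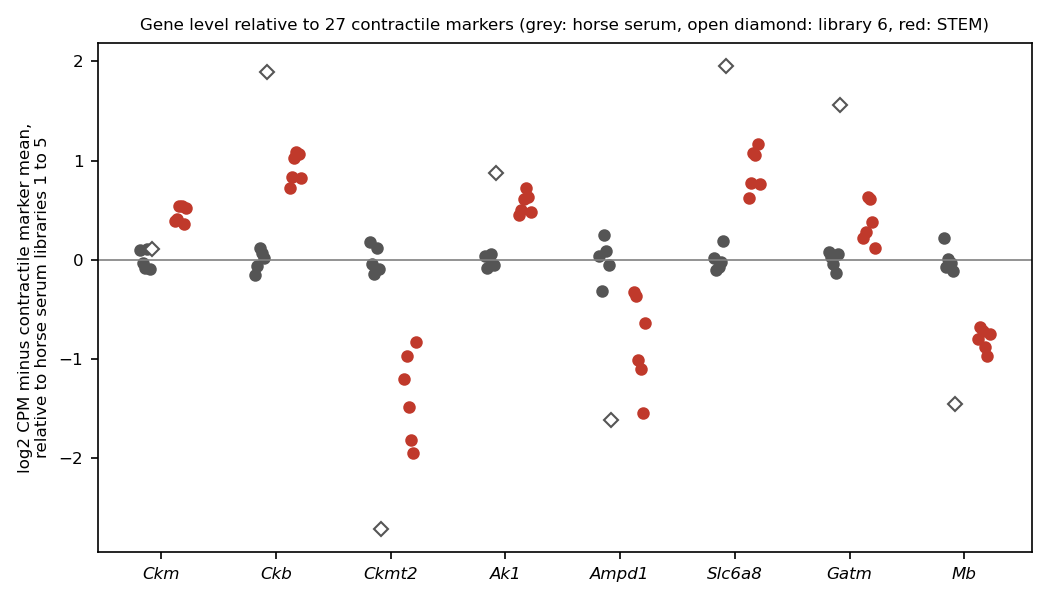
Log2 CPM of each gene minus the mean log2 CPM of 27 contractile markers in the same library (vertical axis, set to 0 at the mean of horse serum libraries 1 to 5), with horse serum in grey, library 6 as an open diamond and STEM in red. Every STEM library is above libraries 1 to 5 for Ckm, Ckb, Ak1, Slc6a8 and Gatm and below them for Ckmt2, Mb and Ampd1. The gap is narrow for Gatm and Ampd1. Library 6 lies among the others only for Ckm.

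Across the 12 libraries the 8 genes fell into pairs and trios with like patterns. Pearson's r of log2 CPM was 0.99 for Ckmt2 and Mb, 0.97 for Ckmt2 and Ampd1, 0.96 for Ampd1 and Mb, 0.95 for Ckm and Ak1 and 0.93 for Ckb and Slc6a8. Without library 6 the same pairs had r of 0.98, 0.95, 0.92, 0.70 and 0.93, and of these 5 pairs Ckm and Ak1 changed most. Gatm followed none of the others (r between -0.07 and 0.10). These correlations are descriptions without a p. The 12 points share the group difference and the low values of library 6. Over all 12 libraries, the tested genes most like Ckmt2 in pattern were Cmya5, Mybpc1 and Armh4 (r = 0.993, 0.992 and 0.989). Those most like Mb were Cd36, Atg4a and Pgm1 (0.992, 0.992 and 0.991), and those most like Ampd1 were Mybpc1, Rtn4 and B3galt2 (0.987, 0.985 and 0.983). Cd36 is a fatty acid carrier. Mybpc1, a thick filament protein of slow fibres, is itself among the contractile markers used above. The nearest patterns to Ckm were those of Dhrs7c, Grhpr and Fam78a (0.990, 0.988 and 0.977), and to Ak1 those of Syngr1, Ubac1 and Myh4 (0.989, 0.979 and 0.978). For Ckb they were Ptgfrn, Gclc and Heatr3 (0.991, 0.989 and 0.989), and for Slc6a8 Ncln, Chpf and Nek6 (0.988, 0.981 and 0.981). Gatm was nearest to Cebpb, Gm21981 and Gm38200, at lower values (0.908, 0.822 and 0.822).

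The wider pathway was read from 8 lists of 56 genes in all, the 8 genes above included, of which 46 could be tested. With all 12 libraries 14 were called higher (30.4%) and 4 lower (8.70%), beside 18.9% and 17.4% of all tested genes. Without library 6 the counts were 19 (41.3%) and 13 (28.3%), beside 26.3% and 24.5%. All 14 and all 4 were also called in the same direction without library 6, and values below are those with all 12 libraries unless stated. The lists are short, and their single counts are given as descriptions. Without the 8 genes, 11 of 38 were higher and 4 lower, or 16 and 10 without library 6, and their median log2 fold change was 0.03 and 0.01, near the 0.01 of all tested genes.

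Of the 6 adenylate kinases tested, 2 were higher and 0 lower with all libraries. Besides Ak1 this was Ak3, which uses GTP in the mitochondrial matrix (log2 fold change 0.30, adjusted p = 0.00177, edgeR). Ak4, also a matrix form, had a pattern like that of Ckmt2 and Mb, with library 6 lowest. It had 6.35 CPM in library 6, 60.5 to 83.8 CPM in the other horse serum libraries and 46.0 CPM or less with STEM. Its log2 fold change was -0.84 with all libraries (adjusted p = 0.167) and -1.08 without library 6 (adjusted p = 0.000113, edgeR). Ak5 passed only without library 6 (0.67, adjusted p = 0.0279).

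Of the 8 genes of the purine nucleotide cycle and of AMP breakdown that were tested, 3 were higher and 2 lower with all libraries. The AMP deaminase of other tissues, Ampd2, rose (log2 fold change 0.46, adjusted p = 0.0134), and the third form, Ampd3, fell (-0.33, adjusted p = 0.0121). The 3 AMP deaminase genes thus did not move together. Adsl, which releases AMP in the cycle, rose by 0.27 (adjusted p = 0.000443), and the nucleotidase Nt5c2 rose by 0.33 (adjusted p = 0.00668). Nt5e, the surface enzyme that turns AMP into adenosine, fell, from 44.9 to 70.1 CPM with horse serum to 23.8 to 36.3 CPM with STEM. Its groups did not overlap with library 6 included, and its log2 fold change was -0.97 (adjusted p = 5.86e-05, edgeR). The muscle adenylosuccinate synthase Adssl1 was lower only without library 6 (-0.14, adjusted p = 0.00896).

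Of the 5 genes tested that exchange ADP and ATP across the mitochondrial membranes, Vdac3, a pore of the outer membrane, was higher with all libraries (0.23, adjusted p = 0.017, edgeR). Without library 6 the carrier Slc25a5 was also higher (0.17, adjusted p = 0.00192) and the pore Vdac1 lower (-0.25, adjusted p = 0.00112). Slc25a4, the main ADP-ATP carrier of muscle and the partner of Ckmt2 in charging creatine, was not called in either fit, with 0.14 and 0.10. Both values were above 0, whereas those of Ckmt2 were below 0.

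All 7 genes tested for subunits of AMP-activated protein kinase, the sensor of AMP, were expressed. The regulatory subunits Prkab1 and Prkag1 rose, by 0.23 (adjusted p = 0.0338, edgeR) and 0.18 (adjusted p = 0.00365). The subunits typical of skeletal muscle, Prkab2 and Prkag3, were lower only without library 6, with -0.20 (adjusted p = 0.0025) and -0.25 (adjusted p = 0.000693), and Prkag2 was higher there (0.52, adjusted p = 0.00886). Neither catalytic subunit, Prkaa1 or Prkaa2, was called. Among the globins of tissue only Mb could be tested.

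Of the 13 tested genes for factors known to act on the Ckm enhancer or on oxidative muscle genes, 3 were higher and 2 lower. Mef2d (0.30, adjusted p = 0.0347), Srf (0.24, adjusted p = 0.00241) and Esrra (0.27, adjusted p = 0.00223) rose, and myogenin, Myog (-0.29, adjusted p = 0.00403), fell (edgeR). Without library 6, Myf6 (0.50) and Mef2a (0.28) were also higher and Mef2c (-0.19) lower. Ppargc1a, the coactivator best known for driving mitochondrial and oxidative fibre genes, was not called (-0.02, adjusted p = 0.963, and -0.24, adjusted p = 0.311, without library 6, edgeR).

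**Figure D5:**
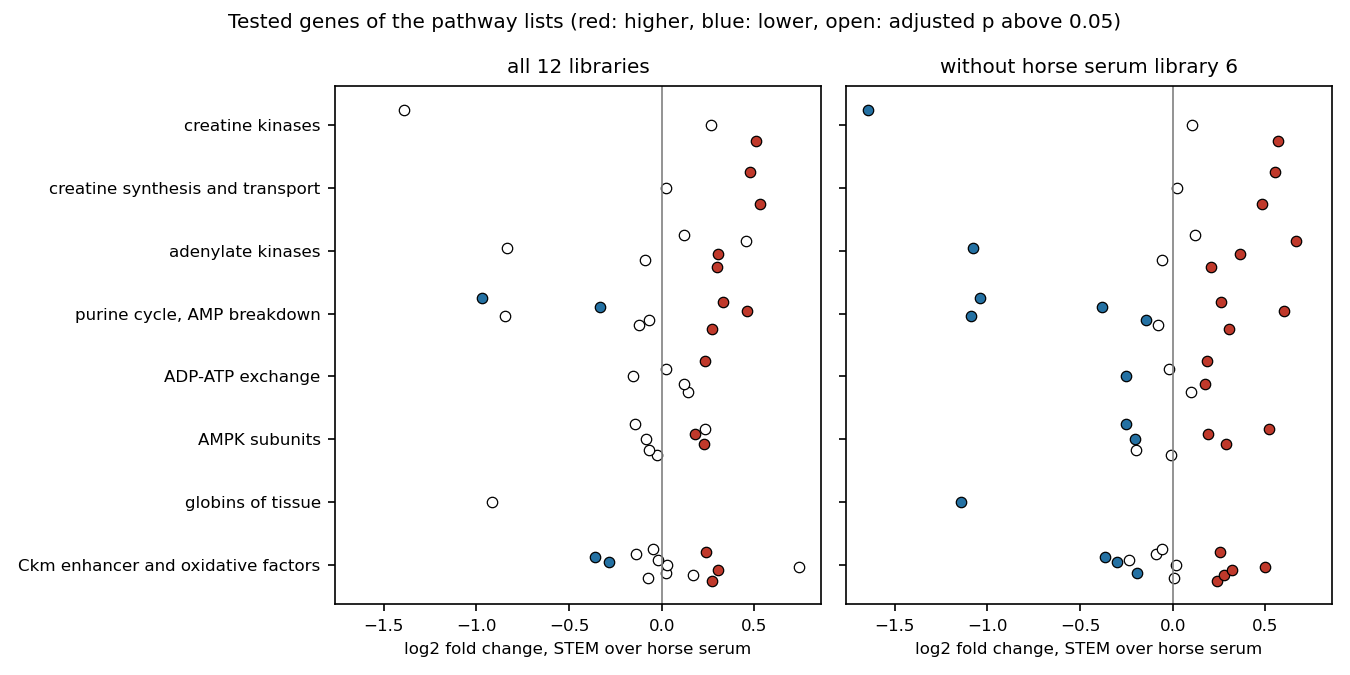
Log2 fold change of STEM over horse serum (horizontal axis) for the 46 tested genes of the 8 pathway lists, 1 circle per gene, with all 12 libraries (left) and without horse serum library 6 (right). Filled circles passed an adjusted p of 0.05 (red higher, blue lower), 14 and 4 of them on the left and 19 and 13 on the right.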

How the data were processed

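The 8 genes and the gene lists were chosen with earlier results of these data known. The authors deposited raw read counts per Ensembl gene for 12 libraries, made from total RNA depleted of ribosomal RNA with a stranded kit and paired reads, with no normalization. The submitters' processing notes name STAR 2.7.3a, featureCounts 1.6.3, DESeq2 1.26.0 and GRCm38. The annotation release and the strand setting are not given in the sources used here. Symbols, coordinates and exon lengths came from GENCODE M21, which held 55227 of the 55487 listed genes.

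Libraries were grouped by their labels. From the counts, edgeR 4.0.16 in R 4.3.3 (TMM, filterByExpr, robust glmQLFit, glmQLFTest) tested STEM against horse serum over 14175 genes, with Benjamini-Hochberg adjustment and a threshold of 0.05. It kept 14267 genes without horse serum library 6. The 95% intervals used the same fit. CPM used TMM library sizes, and log2 CPM a prior count of 2. Alternatives were DESeq2 1.42.0 (the study's tool), limma-voom (limma 3.58.1) with and without sample quality weights, other scalings and filters, leaving out each library, and levels relative to contractile markers, tested by two-sided exact permutation over libraries (924 arrangements of the 12 libraries, 462 without library 6). Limma on the relative values was added after seeing the data. Named genes were the 8 genes, called genes of the lists, and the 3 genes most correlated with each of the 8; a few genes of the lists that were not called, and the antisense neighbours, were named after their values were seen. Some genes that meet this are not reported here by name. No set test was run.

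Tested on counts simulated for this comparison with 200 of 14175 genes changed, edgeR recovered 97 of 100 genes changed 4-fold and 85 of 100 changed 2-fold, and 5.21% of its calls were false. The figures for DESeq2 were 99 and 90 (12.9% false), for limma-voom 98 and 84 (4.71% false) and for limma on log2 CPM 99 and 89 (5.53% false). The exact permutation test with adjustment over all genes recovered 0 of either, because its smallest p, 0.00216, cannot pass the adjustment when few genes change. The simulated libraries of a group shared the same expected levels, so none stood apart as library 6 did. Far fewer genes were changed than the 36.4% called in the data. These rates therefore cannot be carried over to the real comparison. Replicates within groups differed by more than sampling noise (chi-square per degree of freedom 3.54 to 76.6), so each library counted once.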

Additional observations from a re-analysis of the deposited data

Results flagged for a closer look

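In the horse serum group, library 6 held a value far below the other 5 libraries for 5 of the 8 genes: Ckm at 175 CPM, Ckmt2 at 3.02 CPM, Ampd1 at 0.461 CPM, Ak1 at 186 CPM and Mb at 270 CPM. The gap to the nearest library was 0.725, 0.781, 0.689, 0.703 and 0.756 of the group's whole range, each above Dixon's 95% critical value for 6 libraries. Of the 16 sets of 6 values tested (8 genes in both groups), 5 were set apart in this way, all 5 by library 6. These 5 values come from the same library, which already stood apart, and from genes with like patterns. They are not separate trials, and their count cannot be set against a chance rate. Library 6 also held the lowest share of mitochondrial counts, 2.43% against 3.72 to 4.21% in the other horse serum libraries and 2.54 to 3.29% with STEM, and a quality weight of 0.111 in limma. It did not have the lowest depth, with 18254882 counts. The part of these values in the low levels was not tested.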

How the results depend on the processing

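The direction held under every alternative run for Ckm, Ckb, Ckmt2, Ampd1, Ak1, Slc6a8 and Mb. Leaving out 1 library at a time gave log2 fold changes of 0.11 to 0.34 for Ckm, 0.47 to 0.57 for Ckb, -1.64 to -1.27 for Ckmt2, -1.09 to -0.71 for Ampd1, 0.20 to 0.34 for Ak1, 0.44 to 0.55 for Slc6a8, -0.01 to 0.05 for Gatm and -1.14 to -0.81 for Mb. Gatm, not called in any of these fits, changed sign without STEM library 9 (-0.01). The count of the 8 genes called, 3 with all libraries, ranged from 2 to 6 when 1 library was left out (6 without horse serum library 6) and was 6 with limma-voom and sample quality weights. That of all tested genes ranged from 4459 to 7245 when 1 library was left out, the latter without library 6. It was 7320 with limma-voom and sample quality weights, so calls rose over all tested genes as well. The quality weights also brought calls for Ckmt2 (-1.59), Ampd1 (-1.05) and Mb (-1.07), and DESeq2 for Ckmt2 (-1.41, adjusted p = 0.0396). Ak1 lost its call without a filter on low counts (0.29, adjusted p = 0.122). Relative to the contractile markers with all libraries, Ckb (0.61), Ak1 (0.42) and Slc6a8 (0.59) lost theirs, by the exact permutation test, which called 0 of all tested genes, and by limma. Without library 6, both tests called Ckm (0.46), Ckmt2 (-1.38), Ampd1 (-0.83), Gatm (0.38) and Mb (-0.80). The cause of these changes was not tested.

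Ampd1 had no value with at least 10 counts required in every library, since library 6 held 9. Other scalings moved the median log2 fold change of all genes by 0.019, -0.005 and -0.020. No paired analysis was possible because the groups share no replicate numbers (1 to 6 and 7 to 12). Depth limited Ampd1 most, and every interval covers these 12 libraries of 1 cell line only.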
